A study of Mus musculus with 12 samples.

Results

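The distal end of mouse chromosome 16 was defined as the regions of trimethylated histone H3 lysine 9 (H3K9me3) on chromosome 16 that start at 96 Mb or beyond in build mm10. These are 63 of the 68291 regions in the authors' deposited table. The 157 regions that start between 92 and 96 Mb served as the flank. The end was picked because its values run against those of the rest of the chromosome, so its fold changes are described below and are not tested. The study profiled H3K9me3 by chromatin immunoprecipitation and sequencing (ChIP-seq) in mouse embryonic stem cells that lack Tex19.1 (Tex19.1-/-) and in heterozygous cells (Tex19.1+/-). Both came from E14Tg2a, a feeder-free stem cell line of 129/Ola background, and were used at passages 12 to 20. Per genotype, knockout and heterozygous, there are 3 libraries of immunoprecipitated DNA and 3 of input DNA, and the labels do not state whether a genotype was 1 clone or several. The genotype field of the labels goes against the title in 6 of the 12 libraries, and groups were taken from the titles.

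The deposited table compares the genotypes with 1 log2 fold change per region and holds 0 columns of single libraries. Neither the spread between replicates nor the depth of each library can therefore be read from it. It does not say which genotype was the reference, so each value is given with its deposited sign and a negative value may stand for less signal in either genotype. Whether input entered the comparison is not stated either, so that less of the mark per DNA copy and fewer DNA copies cannot be told apart in these values. The errors given are derived standard errors, computed from the deposited fold change and p-value of a region, or taken from regions of like signal where the p-value was too large to give one. At the targeted gene Tex19.1 on chromosome 11 the closest region was 28126 bp distant, outside the 5 kb used here, and the table gives no check of the genotypes there. Of 8 marker genes of embryonic stem cells 2 had a region, as did 2 of 6 fibroblast markers, none of them called; a repressive mark does not measure expression and gives no check of the cell type.

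H3K9me3 is a mark of heterochromatin, laid down by methyltransferases such as SETDB1 and the SUV39H enzymes and bound by HP1 proteins. In embryonic stem cells it covers retrotransposons, clusters of zinc finger genes and imprinted control regions. Tex19.1 is a mammal-specific gene active in germ cells, placenta and pluripotent cells, where its loss is known to affect the control of retrotransposons. The distal part of mouse chromosome 16 carries the same genes, in much the same order, as part of a human chromosome. That human chromosome is present in an extra copy in Down syndrome. Dscam owes its name, Down syndrome cell adhesion molecule, to its position there.

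None of the 28 RefSeq promoter windows of the end overlapped a region, which for so few windows is near the 2.73% of 32851 windows genome-wide. The nearest approach was 336 bp. The promoters of the genes that bracket the named interval, Dscam and Zbtb21, and of C030010L15Rik and A630089N07Rik, noncoding RNA genes in the stretch of dense regions beyond Zbtb21, are printed to show what lies beside the marked DNA. Each line gives the 250 bases upstream of a transcript's start site, 5′ to 3′ on the minus strand on which all of them are transcribed, from RefSeq (GRCm38.p6, the assembly that mm10 names), with each CG dinucleotide in capitals.
Dscam: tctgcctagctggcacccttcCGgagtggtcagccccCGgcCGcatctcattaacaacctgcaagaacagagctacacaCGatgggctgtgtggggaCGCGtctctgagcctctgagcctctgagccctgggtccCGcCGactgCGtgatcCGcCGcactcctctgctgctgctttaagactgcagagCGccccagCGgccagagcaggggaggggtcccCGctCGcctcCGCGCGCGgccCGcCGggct
Zbtb21: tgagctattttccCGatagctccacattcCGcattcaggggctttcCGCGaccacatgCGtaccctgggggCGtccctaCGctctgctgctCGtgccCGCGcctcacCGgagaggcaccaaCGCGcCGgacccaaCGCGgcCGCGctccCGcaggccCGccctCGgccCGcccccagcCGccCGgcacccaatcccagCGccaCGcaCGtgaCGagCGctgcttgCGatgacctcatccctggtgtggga
C030010L15Rik: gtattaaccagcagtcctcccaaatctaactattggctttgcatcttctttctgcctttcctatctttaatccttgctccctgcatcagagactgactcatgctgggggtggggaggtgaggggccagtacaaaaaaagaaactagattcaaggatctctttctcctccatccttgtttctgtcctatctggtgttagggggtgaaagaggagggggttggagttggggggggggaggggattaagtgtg
A630089N07Rik: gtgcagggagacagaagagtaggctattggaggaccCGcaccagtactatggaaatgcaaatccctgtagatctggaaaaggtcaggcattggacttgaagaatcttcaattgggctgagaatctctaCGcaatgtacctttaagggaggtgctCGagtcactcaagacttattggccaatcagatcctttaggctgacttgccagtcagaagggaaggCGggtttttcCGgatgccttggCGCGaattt
The starts used for Dscam and C030010L15Rik lie inside the annotated gene body, which extends past the near edge of the window by 378 bp at Dscam and by 9508 bp at C030010L15Rik. The windows lie at chr16:97170736-97170985 for Dscam, chr16:97962623-97962872 for Zbtb21, chr16:97999126-97999375 for C030010L15Rik and chr16:98082440-98082689 for A630089N07Rik. The motif CG, which reads the same on both strands, was found in 92.1% of all promoter windows of this length. The Dscam window held 21 CG, a number reached by 16.3% of all windows, and the Zbtb21 window held 30, a number reached by 5.94%. The nearest regions to these CG-rich windows were 51677 bp and 5707 bp away. The C030010L15Rik window held 0 CG and lay 336 bp from a region with a log2 fold change of -1.07 (derived standard error 0.43), the most negative of the end in the authors' deposited table. The A630089N07Rik window held 7 CG, a number reached by 46.3% of windows, and lay 1051 bp from a region at -0.51 (derived standard error 0.16) in the authors' deposited table. A count of CG describes these letters and says nothing of methylation there.

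The end as defined by position was negative where the rest of the chromosome was positive. Of its 63 regions 52 had a negative and 11 a positive sign. The values ran from -1.07 to 1.55 around a median of -0.44, which is a ratio of 0.739. Of the 157 regions of the flank, 27 were negative and 130 positive, with a median of 0.38 or a ratio of 1.30. The median of the end was thus 0.82 below that of the flank on the log2 scale, a ratio of 0.568. Over all of chromosome 16 before 96 Mb the median was 0.32 in 2476 regions, and over the chromosomes other than 11 and 16 it was -0.03 in 62534 regions. Chromosome 11 was positive as well, with a median of 0.28 in 3218 regions. None of the 93 windows of 1 Mb before 96 Mb had a negative median. They ran from 0.16, in the window from 21 Mb, to 0.66. At the position limit, the first region inside (chr16:96194929-96195937) had -0.14 and the last region outside (chr16:95972932-95974574) had 0.27 in the authors' deposited table.

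**Figure D1:**
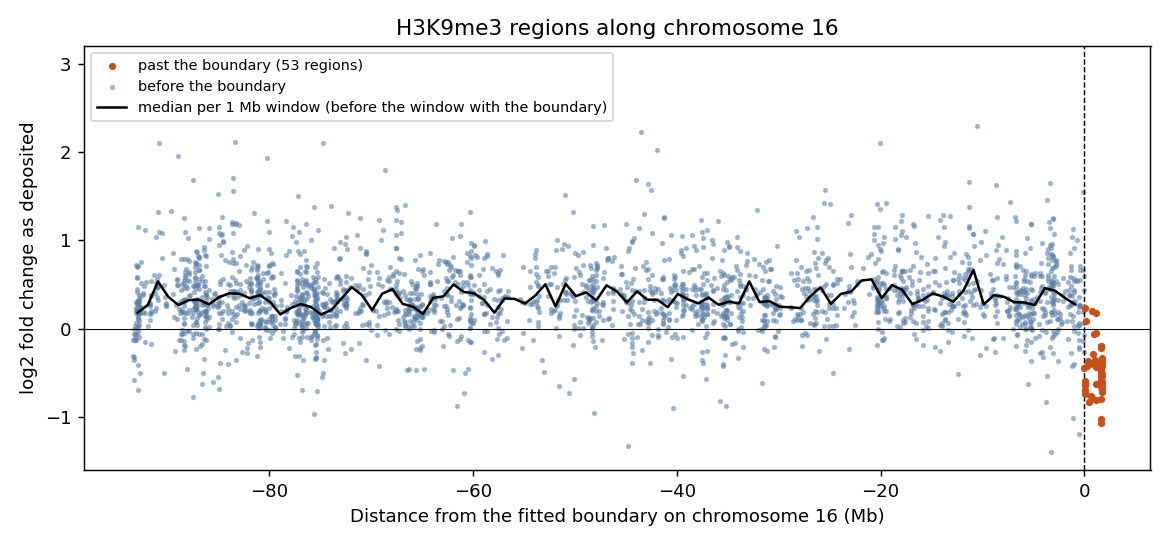
Deposited log2 fold change of each H3K9me3 region on chromosome 16 (y axis) against its distance from the fitted boundary in Mb (x axis), with 53 regions past the boundary in orange and the others in blue; the black line joins medians of 1 Mb windows before 96 Mb. The line stays between 0.16 and 0.66, and 49 of the 53 orange points are below 0.

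In the main fit the downward shift began inside Igsf5, not at 96 Mb and not at Dscam. A fit of 1 step to the 220 regions from 92 Mb onward placed it between the regions that end at 96380870 and start at 96384652, a gap of 3782 bp within the body of Igsf5 (chr16:96361479-96465572), an immunoglobulin superfamily gene of cell junctions. The mean log2 fold change was -0.48 in the 53 regions past this boundary and 0.36 in the 167 regions before it, a step of -0.83 or a ratio of 0.561. As the fit chose the boundary for this contrast, these levels describe it and do not test it. The 10 regions between 96 Mb and the boundary lay at the level of the flank rather than of the end, and their median was 0.20, with 3 negative and 7 positive. Without them the end had a median of -0.51, or a ratio of 0.703, with 49 of 53 regions negative.

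The regions on either side show how closely the boundary can be placed. On the telomeric side, the weak region chr16:96384652-96385131 had -0.45 (derived standard error 0.54) in the authors' deposited table. It is followed by chr16:96414637-96416293 at -0.69 (derived standard error 0.23) and by chr16:96418601-96420235 at -0.63 (derived standard error 0.27) in the authors' deposited table. All 3 were negative, the first by less than its error. On the centromeric side, the weak region nearest to the boundary, chr16:96380201-96380870 in Igsf5, had 0.60 (derived standard error 0.43) in the authors' deposited table. The region before it, chr16:96349223-96350477 between genes, had 0.21 (derived standard error 0.23) in the authors' deposited table. The third, chr16:96301985-96302190 in B3galt5, a galactosyltransferase gene of glycolipid synthesis, had -0.26 (derived standard error 0.69) in the authors' deposited table. Of these 3, the first was positive by more than its error and the others lay within their errors of 0. The first regions of more than 16 CPM on each side, where the errors are smaller, start at 96414637 and end at 96350477. The 3 fits limited to strong or wide regions gave that interval. It begins before Igsf5, which starts at 96361479, so a placement inside the gene rests on the weak regions.

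With each region weighted by the error typical of its signal, the same gap gave the best fit. The weighted sum of squares, in squared standard errors, was greater by 1.96 for the next gap to the right, between 96385131 and 96414637, and by 6.13 for the next gap to the left, between 96350477 and 96380201. The next best gap, between 96300434 and 96301985, was worse by 14.9. The unweighted fit, which gave the boundary, separated the next gap to the right more, that to the left about as much and gaps in B3galt5 less. In units of its residual variance, the next gap to the right was worse by 3.61 and that to the left by 6.05. Gaps in B3galt5, between 96298670 and 96300097 and between 96300434 and 96301985, were worse by 6.17 and 6.48. A fit with 2 steps kept the fitted boundary and put a smaller step at 93.6 Mb. The mean there was 0.26 in the 80 regions between the steps and 0.45 in the 87 before them.

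**Figure D2:**
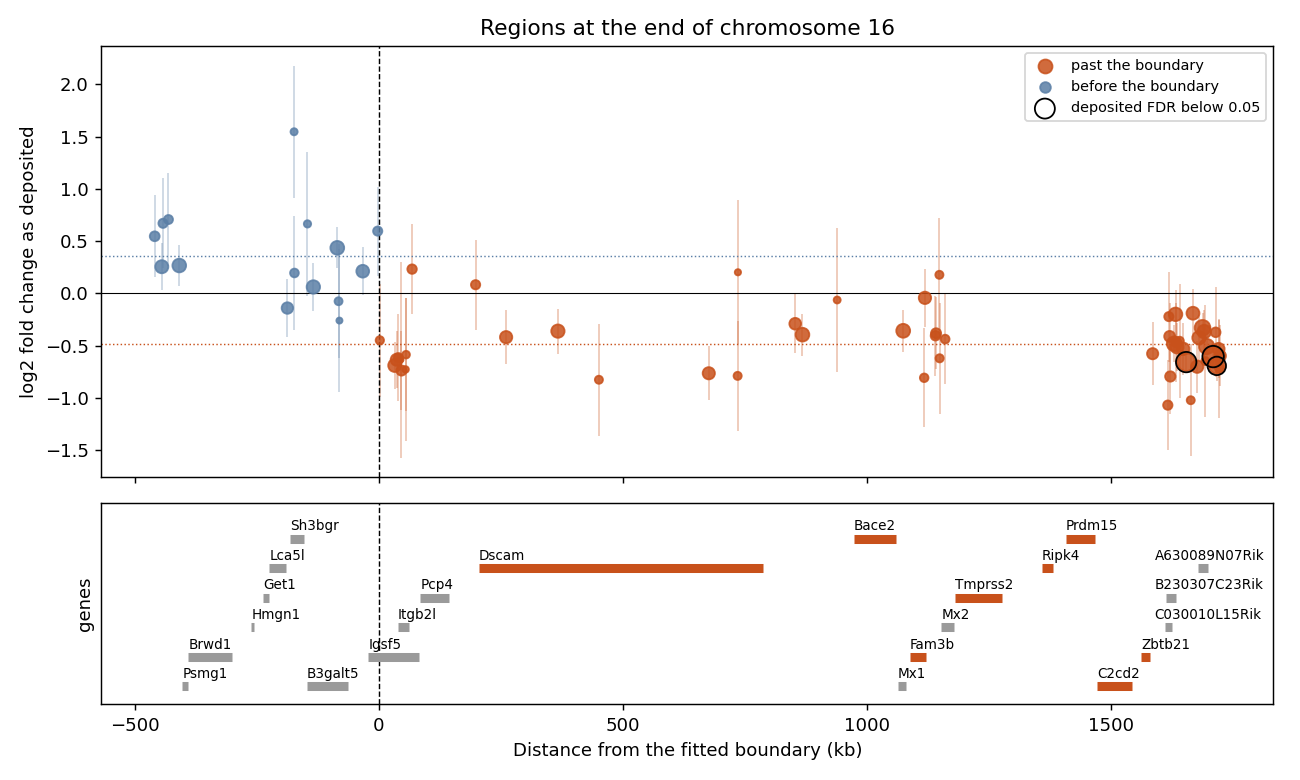
Upper panel: deposited log2 fold change (y axis) of each region from 95.9 Mb onward against its distance from the fitted boundary in kb (x axis); vertical bars are derived standard errors, larger points have more signal, rings mark a deposited FDR below 0.05 and dotted lines mark the mean levels of -0.48 past and 0.36 before the boundary. Lower panel: bodies of the named genes at the same distances, with the 8 genes of the named interval in orange; the points turn negative within Igsf5, and no region lies over Tmprss2, Ripk4, Prdm15, C2cd2 or Zbtb21.

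The values past the boundary scattered no more widely than the derived errors. Their mean weighted by error was -0.51, with a derived standard error of 0.03 that treats regions as independent. The deviations from it had a standard deviation of 0.773 in units of the error typical of each region's signal, and 100% of the 53 regions lay within 1.96 such errors. The flank scattered by 0.914 such units about its own mean, and chromosomes other than 11 and 16 by 0.931. The fit that placed the boundary also keeps the scatter on either side small, so this is a description. The 4 positive regions past the boundary were weak, with a log2 CPM of 1.60 to 2.76, and their values of 0.08 to 0.23 were smaller than their derived errors of 0.43 to 0.69.

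Fold change past the boundary varied little with signal, width or position. With the 53 regions as points, which share all libraries, Pearson's r was -0.03 with log2 CPM, -0.09 with width and -0.09 with position. Spearman's rho was 0.15, 0.06 and -0.03 in the same order. The 24 regions with a log2 CPM below 3 had a median of -0.53, the 13 from 3 to 4 had -0.58 and the 16 of 4 or more had -0.45. All 29 regions with a log2 CPM of 3 or more were negative.

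**Figure D3:**
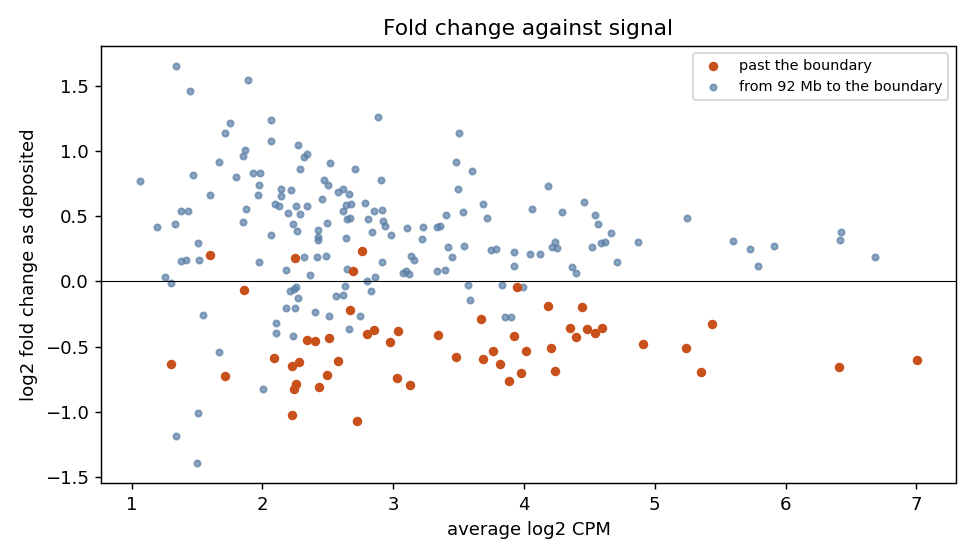
Deposited log2 fold change (y axis) against average log2 CPM (x axis) for the 53 regions past the boundary (orange) and the 167 regions from 92 Mb to the boundary (blue). From a log2 CPM of 4 upward the 16 orange points lie below 0 and the 27 blue points above it, while the scatter widens towards low signal.

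Past the boundary the regions fell into 4 stretches. The first held 9 regions in the telomeric part of Igsf5 and the overlapping Itgb2l, an integrin beta subunit gene. Of these 8 were negative, with a median of -0.63. The 6 regions at Itgb2l, a gene named here after its values were seen, lay between -0.74 and -0.59. Pcp4, a neuronal regulator of calmodulin, had no region within 5 kb, and 0 of the 9 regions of this stretch were called, near the 0.281% of all 68291 regions with a deposited FDR below 0.05.

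A single weak region between Pcp4 and Dscam had 0.08 (derived standard error 0.43) in the authors' deposited table. Dscam, a large adhesion molecule gene of neurons (583.7 kb), had 6 regions, all in its body. The values were -0.42 (derived standard error 0.26), -0.36 (0.22), -0.83 (0.53), -0.76 (0.26), -0.79 (0.52) and 0.20 (0.69) in the authors' deposited table, in order of position. Of these 5 were negative, the positive one was the weakest, and the median was -0.59. The region with the smallest p-value, chr16:97058376-97060046, is not called in the authors' deposited table (FDR 0.374), and neither are the others.

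The stretch from the telomeric side of Dscam to the Mx genes held 11 regions, 10 of them negative, and its median was -0.38. Bace2, an aspartyl protease related to the beta-secretase of the amyloid precursor protein, had no region within 5 kb and its nearest region lay 13851 bp away. Fam3b, which encodes a cytokine-like protein of pancreatic islets, had 2 regions 557 bp apart in its body, at -0.81 (derived standard error 0.47) and -0.04 (derived standard error 0.28) in the authors' deposited table. They differ by 0.76. At Mx1 and Mx2, interferon-induced GTPase genes that the annotation lists as transcribed pseudogenes, there were 1 region at -0.36 (derived standard error 0.20) and 3 regions from -0.62 to 0.18 in the authors' deposited table.

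The next 425 kb, from 97543962 to 97968579, held no region at all, and is the 8th longest of 2538 gaps between regions on chromosome 16. Most of the named genes lie there. Tmprss2, a transmembrane serine protease gene, Ripk4, a kinase gene of epidermal differentiation, Prdm15, a zinc finger gene known for a role in naive pluripotency, C2cd2 and Zbtb21, a zinc finger gene of the BTB class, had no region within 5 kb. Their nearest regions lay 20720, 197971, 116704, 42784 and 5952 bp away. Mir6964, the microRNA gene in C2cd2, was 91288 bp from a region. The table therefore holds values for 2 of the 8 named genes, Dscam and Fam3b, with 8 regions, 7 negative and 1 positive, and a median of -0.59. By the deposited FDR 0 of these 8 were called, which is near the 0.281% called of all regions.

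The strongest signal lay beyond the last named gene. From the first region past Zbtb21 to the last of the chromosome, 139.1 kb held 26 regions, which is 186.9 regions per Mb, against 39.2 per Mb in the flank and 26.6 per Mb over chromosome 16 before 96 Mb. The values of the flank and chromosome are averages over longer stretches, and a run of regions of like density lies near 21 Mb. Regions covered 32.0% of the stretch beyond Zbtb21, against 3.55% of the flank. It held 49.1% of the regions past the boundary and 70.4% of their summed CPM. All 26 regions were negative, with values from -1.07 to -0.19 and a median of -0.52.

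All 3 called regions of the end were in this stretch, between annotated genes. A region is called when its FDR in the authors' deposited table is below 0.05. The broadest, chr16:98088811-98097318, was 8507 bp wide with 128.2 CPM and had a log2 fold change of -0.60 at an FDR of 3.74e-09, with a derived standard error of 0.08, in the authors' deposited table. It lay 6372 bp from A630089N07Rik. The region chr16:98034821-98040846, 6025 bp wide with 85.1 CPM and 4361 bp from the vomeronasal receptor pseudogene Vmn2r-ps112, had -0.66 at an FDR of 6.09e-07, with a derived standard error of 0.10, in the authors' deposited table. The third, chr16:98098893-98102132 with 40.8 CPM, had -0.69 at an FDR of 0.00339, with a derived standard error of 0.15, in the authors' deposited table. The 3 values lie within 0.09 of each other, less than the largest of their errors, and correspond to ratios of 0.658, 0.634 and 0.619.

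Among the other regions of this stretch, those at B230307C23Rik, a gene annotated as protein-coding, and the overlapping C030010L15Rik ran from -1.07 to -0.20, and the 6 at or near A630089N07Rik from -0.70 to -0.33. The region in A630089N07Rik with most signal, chr16:98069454-98073120 with 43.4 CPM, had -0.33 at an FDR of 0.859, with a derived standard error of 0.15, in the authors' deposited table. It is less negative than the called region of 40.8 CPM by 0.36. The error of such a difference is larger than that of either region, and the difference was not tested. The genes of this stretch were named after their values were seen.

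Calls in the end were limited to regions with a log2 CPM of 5.35 or more. Negative calls were 3 of 63 regions of the end, or 4.76%, against 0.0893% of all 68291 regions, and positive calls 0 of 63, against 0.192% of all regions. As the end was chosen for its negative values, nothing is read from this excess. At a log2 CPM of 4 to 5 the smallest called change in the table was 0.68, and at 3 to 4 it was 1.00. The 11 and 13 regions past the boundary at these levels had medians of -0.39 and -0.58, smaller in size than those called changes. The smallest called change is no fixed limit, as chr16:96414637-96416293, at -0.69 with a log2 CPM of 4.24, was not called. Why regions were not called was not tested. At an unadjusted p below 0.05 there were 16 negative regions past the boundary, against 2.05% of all regions, and 0 positive ones, against 2.7% of all regions. The 2 positive regions of the end at that level, in Sh3bgr (1.55, derived standard error 0.63) and B3galt5 (0.44, derived standard error 0.20) in the authors' deposited table, lay before the boundary.

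Of the 10 end regions with the highest signal, 9 were past the boundary and negative, and 7 were beyond Zbtb21. The exception was chr16:96296670-96298670 in B3galt5, at 0.44 in the authors' deposited table. The least of the 10 had a log2 CPM of 4.48. In signal and width the regions past the boundary were somewhat larger than those of the flank, with a median log2 CPM of 3.13 against 2.64 and a median width of 853 bp against 618 bp. Over all regions the medians were 3.08 and 773 bp. Of the regions past the boundary 43.4% overlapped no gene, against 56.1% in the flank and 64.4% of all regions.

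The genes centromeric of the boundary had few regions and mixed signs. Psmg1, a proteasome assembly factor, Brwd1, a bromodomain protein, Hmgn1, a nucleosome-binding protein, and Get1, a receptor for membrane insertion of tail-anchored proteins, had none within 5 kb. Lca5l had 1, at -0.14 (derived standard error 0.28), shared with Sh3bgr, whose 3 regions ran to 1.55 in the authors' deposited table. The 5 regions of B3galt5 ran from -0.26 to 0.67 with a median of 0.06. Counting both sides of the boundary, 6 of the 11 other listed genes of the end had 22 regions within 5 kb. Of these regions 14 were negative and 8 positive, with a median of -0.31 and 0 calls. Igsf5, which spans the boundary, accounts for 10 of the 22, of which 8 were negative. Mx2 and Mx1, past the boundary, account for 3 and 1, so this median does not describe the centromeric side alone.

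The listed genes of the flank lay on the positive side. Of 23 genes, 10 had a region within 5 kb. Their 40 regions were 5 negative and 35 positive, with a median of 0.38 and 0 calls. The 11 regions at Runx1, a transcription factor of blood formation, had a median of 0.58, and the 10 at Kcnj6, an inwardly rectifying potassium channel gene, had 0.38. The 3 at Erg, an ETS transcription factor gene and the last of these genes before the end with a region, had 0.54. Within the flank, the smallest to the largest value of a listed gene's region ran from -1.01 to 1.46, so that single weak regions overlap between flank and end while the medians are on opposite sides of 0.

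A stretch of the same length, 1.72 Mb, was taken from the end of each of the other 20 chromosomes, X and Y included. Chromosome 16 had the lowest median, -0.51 over 53 regions. The others ran from -0.21 on chromosome 2 to 0.20 on chromosome 11. Set against the rest of its own chromosome, the end differed by -0.83 on chromosome 16 and by -0.21 to 0.09 on the others. The share of negative regions was 92.5% on chromosome 16 and 18.6% to 82.5% elsewhere, the highest on chromosome 15. No test was made, as the end of chromosome 16 was chosen for its values. In a 1 Mb window on chromosome 10 that holds Mdm2, another stretch noted for negative values, 23 of 25 regions had a negative sign and the median was -0.57.

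**Figure D4:**
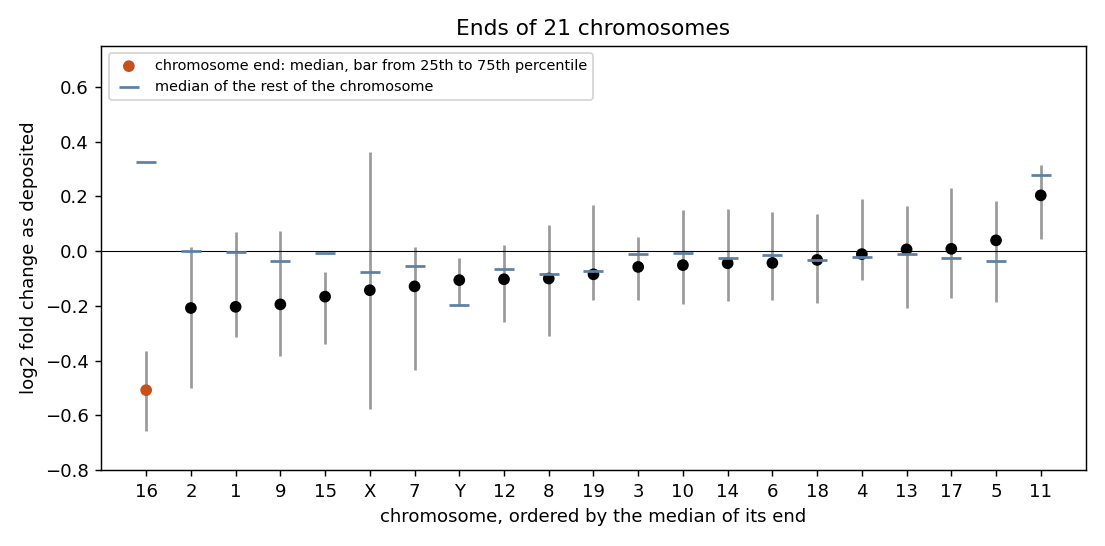
Median deposited log2 fold change (y axis) in the last 1.72 Mb of each of 21 chromosomes (x axis, in order of that median), with bars from the 25th to the 75th percentile of regions and blue dashes for the median of the rest of the chromosome. Chromosome 16, in orange at the left, has an end median of -0.51 below a chromosome median of 0.32, while on chromosome 11 both are above 0.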

How the data were processed

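Per the labels' protocols, nuclei of formaldehyde-fixed cells were sonicated, H3K9me3 was precipitated with an Abcam antibody, and libraries were read as 75-nt pairs on an Illumina HiSeq. Per the submitters' processing notes, Bowtie2 2.2.6, HOMER 4.8, bedtools 2.25.0, edgeR and build mm10 were used; not given in the sources used here are their roles, the definition of regions, the use of input and the reference genotype. Per the file headers, the deposited table gives per region a log2 fold change and average log2 CPM, with a p-value and its adjusted form (FDR). Values are relative within libraries, so a shift shared by every region would be invisible. The CPM of all regions sum to 1081650, close to 1000000.

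Computed here (Python 3.11.15, SciPy 1.17.1): a derived standard error, which is the size of the log2 fold change over the normal deviate that matches the deposited p-value. Where that deviate fell below 1 (all but 19017 regions), the median error of regions in the same bin of 0.5 log2 CPM was used. It inherits the authors' test, and may leave out variation between libraries. The boundary was found by unweighted least squares with 1 step and at least 5 regions on a side. On simulated data with normal errors, only the weighted form of the fit was held to a set accuracy. A region belongs to a gene in its body or within 5 kb of it, by RefSeq GRCm38.p6. Coordinates are as deposited; distances may be off by 1 base.

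Named by rule were the 8 listed genes, called regions, the 10 strongest and the extreme regions, the 3 regions beside the boundary and beside 96 Mb, and 2 lists of neighbouring genes. Members and lists were chosen with earlier results of these data known. Alternatives varied signal and width filters, the start of the end, the weighting, the fit, the threshold and the gene window. Repeats and exons were not analysed here.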

Additional observations from a re-analysis of the deposited data

How the results depend on the processing

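The median of the end (-0.44) stayed between -0.51 and -0.39 under 8 alternatives, and its difference from the flank (-0.82) between -0.89 and -0.70 under 9. The share of negative regions, 82.5%, was 90.9% with a log2 CPM of 3 or more, 95% with a start at 97 Mb and 92.5% with a start at the fitted boundary (the last leaves out the 10 regions before it); with a log2 CPM of 4 or more it was 84.2%. Both signal filters kept the same positive regions, those that start at 96247810, 96296670 and 96349223, all before the boundary. The stricter filter dropped only negative regions, so the share was lower. The boundary lay at 96382557 to 96382761 (midpoints of the gap) in 10 of 11 alternative positions. The other position, the first of 2 steps, was at 93640769. Midpoints do not show the width of the gap. The fits limited to strong or wide regions placed the boundary only between 96350477 and 96414637. Calls were 3 negative and 0 positive with an FDR threshold of 0.01, 2 and 0 with Holm's adjustment, and 16 and 2 at an unadjusted p below 0.05. Chosen after seeing the data, the level past the boundary (-0.48) was -0.51 when weighted by error and -0.42 without the stretch beyond Zbtb21. With gene bodies alone or a window of 10 kb, 2 or 3 of the 8 named genes had a region. No paired analysis was possible because the table holds no values of single libraries, and for the same reason no library could be left out. The smallest called change was larger at lower signal, 1.00 at a log2 CPM of 3 to 4 and 1.51 at 2 to 3.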
